A study of Homo sapiens with 3 samples.

Results

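A set of 10 genes whose messenger RNAs are classed as 5′ terminal oligopyrimidine (5′ TOP) transcripts were examined for contact with the RNA-binding protein TIA1. They are the ribosomal protein genes RPSA, RPL3, RPL4, RPL5, RPL7A, RPLP0 and RPS3, the elongation factor genes EEF1A1 and EEF2, and TPT1, which encodes the translationally controlled tumor protein. The 10 genes were chosen by name, and an interval belonged to a gene when it overlapped the gene's hg19 span on the same strand by at least 1 nt. By that rule they held 106 of 103134 clusters of replicate 1, 97 of 66222 clusters of replicate 2, and 10 of the 2253 peaks that the authors listed as reproducible. The data are eCLIP libraries, in which ultraviolet light couples a protein to the RNA it touches and the RNA recovered with an antibody is sequenced beside an input that was not immunoprecipitated. HEK293T, an established human embryonic kidney line, was crosslinked at 600 mJ, and the labels name no starvation, drug or stress. There were 2 anti-TIA1 replicates and 1 input, all of the same line. The replicates are called technical in one label and biological in another, and the treatment text gives the antibody's catalogue number to Msi1 where the antibody field gives it to TIA1, so the spread between replicates may be technical.

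TOP messenger RNAs begin with a cytosine at the cap followed by an unbroken run of pyrimidines, and they encode ribosomal proteins and other parts of the translation machinery. The run lets the mTOR pathway switch their translation on and off together, with LARP1 as a protein that binds the capped run. TIA1 and its relative TIAL1 bind uridine-rich RNA, act in splicing and in stress granules, and are known to associate with TOP messenger RNAs when amino acids are withdrawn. Several ribosomal protein genes also carry small nucleolar RNAs (snoRNAs), short RNAs that guide chemical modification of other RNAs, inside their introns.

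The start of each transcript is shown because the pyrimidine run is what defines the class. RefSeq (GRCh38.p14) gave a start for 9 of the 10 genes, with RPL5 not matched. The first 25 bases from that start are written 5′ to 3′, and capitals mark the pyrimidine run that begins at base 1.
RPSA: CTTTTCCgtgctacctgcagagggg
RPL3: CTCTaccggcgggatttgatggcgt
RPL4: aagcacttccttttcctgtggcagc
RPL7A: CTTTCTCTCTCCTCCCgccgcccaa
RPLP0: CCTTCTCTCgccaggcgtcctcgtg
RPS3: CCTTTCCTTTCagcggagcgcggcg
EEF1A1: CTTTTTCgcaacgggtttgccgcca
EEF2: CTCTTCCgccgtcgtcgccgccatc
TPT1: CTTTTCCgcccgctcccccctcccc

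Of these 9 starts, 8 had C as the first base, and 7 had C followed by at least 4 further pyrimidines. Among all 35116 RefSeq starts of the same kind, 14.7% had C as the first base and 4.07% had the run as well. The genes were chosen for the class that this run defines, so their higher shares follow from the choice. The longest run from base 1 was that of RPL7A, at 16 bases, and RPSA, EEF1A1, EEF2 and TPT1 had 7 each. The annotated start of RPL4 was an A, with a run of 12 pyrimidines further in, and that of RPL3 had a run of 4. A match describes these letters at an annotated start and is not a measured cap site.

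Depth was modest. Library totals recovered from the deposited values were 2683407 reads in replicate 1, 1997817 in replicate 2 and 2851338 in the input. Median reads per member cluster were 8 (replicate 1) and 6 (replicate 2), against 4 in each whole list. A log2 fold here is the authors' ratio of immunoprecipitated to input reads after scaling by library totals, and a cluster is called enriched where its log2 fold and its −log10 p-value both reach 3. That p compares the reads of 2 libraries, so it is not a test across conditions. The single input has no list of its own, so no test across samples was possible, and all intervals below cover counting error only. Read numbers are recovered from the deposited values, and those of clusters below the input are lower bounds. Reads from the members and from their processed pseudogenes may be exchanged. GENCODE 29 names 74 pseudogenes of RPSA, 39 of EEF1A1, 37 of RPL7A and 35 of RPL5, and how the authors placed reads with several matches is not given in the sources used here.

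TIA1 contact with these 10 transcripts was uneven. In replicate 1, 8 of 106 clusters (7.55%) were enriched, against a background of 3.09% of all clusters of that list. In replicate 2, 13 of 97 clusters (13.4%) were enriched, against 5.32%. The enriched clusters lay in RPSA, RPL3, RPL5, RPLP0 and EEF2 in replicate 1, and in RPSA, RPL5, RPLP0 and EEF2 in replicate 2. By p-value alone, 16 member clusters of replicate 1 reached 3, against 4.15% of the list, and 17 of replicate 2, against 6.37%. RPL4, RPL7A, RPS3, EEF1A1 and TPT1 had no enriched cluster in either replicate, and no member had a cluster on the opposite strand.

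The order was the other way round among clusters with enough reads. Enriched clusters needed at least 13 reads in replicate 1 and 10 in replicate 2, and 35 and 36 member clusters reached that number. Of the 35, 8 (22.9%) were enriched, against 41.8% of all clusters of replicate 1 with as many reads. Of the 36 in replicate 2, 13 (36.1%) were, against 50.6%. Among clusters with that many reads the members' share was thus under that of the lists, and among all clusters it was over it. Over all clusters, whatever their reads, the members' median log2 fold was lower than that of the lists. It was 1.29 against 1.67 in replicate 1 and 1.51 against 2.10 in replicate 2. A member cluster with just 3 reads and 1 in the input also stood at 1.67 in replicate 1 and 2.10 in replicate 2. The medians were not compared among clusters with as many reads, so they do not set the members apart.

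The replicates found many of the same places. Of the member clusters of replicate 1, 64 (60.4%) overlapped a cluster of replicate 2, against 28.9% of that whole list, and 66 of those of replicate 2 (68.0%) overlapped one of replicate 1, against 45%. The members' higher reads per cluster go with that share too, and their part in it was not tested. All 8 enriched clusters of replicate 1 met a cluster of replicate 2, and for 5 it was enriched too. Of the 13 in replicate 2, 11 met a cluster of replicate 1, enriched in 7 cases. The same shares were not computed for enriched clusters of the whole lists, so these counts do not set the members apart.

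**Figure D1:**
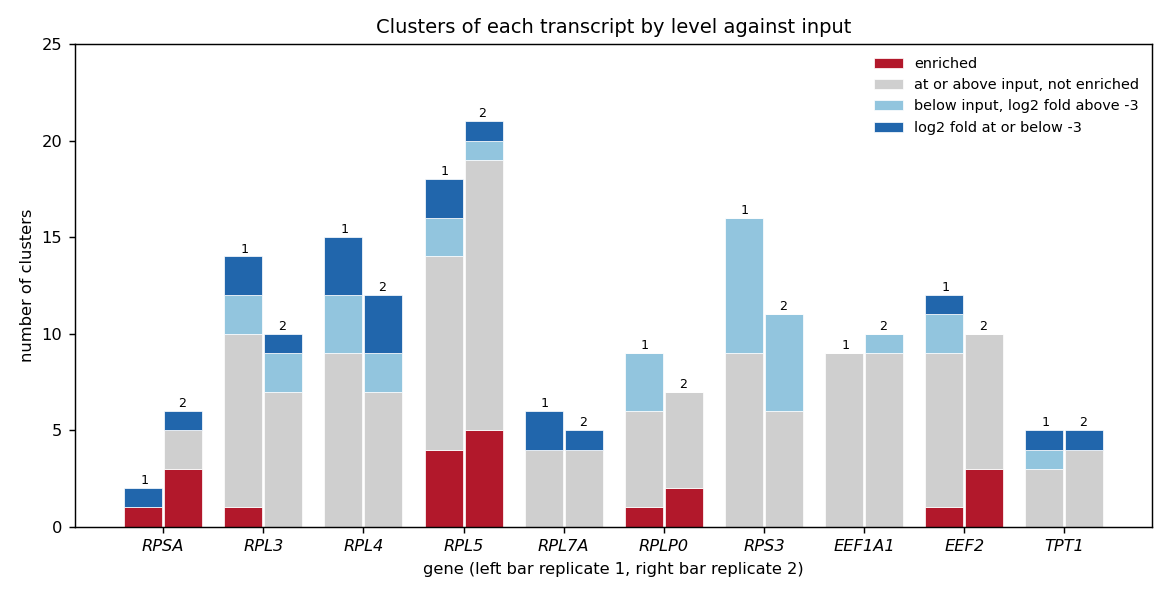
Number of clusters in each gene, left bar replicate 1 and right bar replicate 2, split by level against input. RPL5 holds the most clusters (18 and 21) and the most enriched ones (4 and 5), while RPL4, RPL7A, RPS3, EEF1A1 and TPT1 hold no enriched cluster.

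The authors' 10 reproducible peaks fell in 5 of the genes: 3 each in RPL5 and EEF2, 2 in RPLP0, and 1 each in RPSA and RPL3. Clusters overlapping a reproducible peak numbered 11 in replicate 1, where 2.25% of the list did so, and 12 in replicate 2, where 3.5% did. The members' peaks had a median log2 fold of 3.66, against 4.15 over the whole list, and 7 of the 10 lay under 4, against 39.6% of the list. Their median width was 49.5 nt, against 53 nt for all listed peaks. Each peak has the bounds of a cluster in 1 replicate; the other replicate's value at those bounds was worked out from the authors' mean, over the same input number.

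RPSA encodes a protein of the small ribosomal subunit that is also known as a laminin receptor. Its span covers 39448204 to 39454033 on chromosome 3 (plus strand). The reproducible peak lay from 39449302 to 39449379, beginning 1098 nt into the span, and held 253 and 180 reads in replicates 1 and 2, with 2 in the input. Both replicates were far above the input, and their values nearly coincided. The log2 fold was 7.07 in replicate 1 (exact 95% counting interval 5.20 to 10.12) and 7.01 in replicate 2 (5.13 to 10.06), with an SD of 0.05 (n = 2). Among the 2253 peaks its rank was 4 by fold and 10 by −log10 p.

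That single place held most of what was called in RPSA. Replicate 1 listed it as 1 cluster of 78 nt, and replicate 2 as 3 abutting clusters of 24, 48 and 25 nt with 69, 163 and 23 reads and log2 folds of 5.62, 6.86 and 4.04. The 3 enriched clusters of replicate 2 are thus 1 place. Clusters meeting the peak held 88.8% of the gene's recovered cluster reads in replicate 1 and 93.1% in replicate 2. The replicate 2 clusters of 24 and 48 nt lie inside the peak, and their reads together exceed the 180 at its bounds. A read that meets abutting clusters is thus counted in each, so sums and shares of cluster reads can count it more than once. Beyond it, replicate 2 had small clusters of 6 and 8 reads that were not enriched, and each replicate had 1 cluster far below the input, described further on.

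RPL5 encodes a large-subunit protein that binds the small ribosomal RNA of that subunit. Its span (chromosome 1, 93297594 to 93307481, plus strand) had the most enriched places of the 10 genes. It was also the longest span, at 9888 nt, with the most clusters, and places were not set against length or cluster number. Enriched clusters of either replicate, joined where at most 10 nt apart, formed 13 places in all the members, and 7 of these were in RPL5. The first, from 93297709 to 93297777 and beginning 115 nt into the span, had the second-highest fold among the members' peaks. It held 37 and 21 reads, with 1 in the input, giving log2 folds of 5.30 (2.73 to 10.64) and 4.91 (2.27 to 10.28). The intervals are wide at an input number of 1, the smallest that occurs. The cluster that replicate 2 itself listed there held 21 reads over 2 (3.91).

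The other reproducible RPL5 peaks lay close together. The peak from 93299051 to 93299093 held 16 and 12 reads (log2 folds 4.09 and 4.10), and the one from 93299254 to 93299296 held 16 and 10 reads (4.09 and 3.84), each over an input number of 1. Their replicate values differed by less than the counting intervals. In the list of replicate 2 itself, the cluster at the latter peak had an input number of 2 and a log2 fold of 2.84, and was not enriched. The remaining 4 places of RPL5 were enriched in 1 replicate alone. At 1237 nt into the span replicate 2 had 22 reads over 1 (log2 fold 4.97), and at 6353 nt it had 14 over 1 (4.32), with no overlapping cluster in replicate 1. At 5672 nt replicate 2 reached 3.84 on 10 reads while replicate 1 stood at 3.09 on 8 reads, short of the p-value limit. At 2903 nt replicate 1 reached 3.04 on 31 reads over 4 and replicate 2 stood at 2.10 on 15 over 5. At 2 of these 4 places the other replicate thus had a cluster above the input that missed a limit.

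RPL3 encodes a large-subunit protein at the peptidyl transferase center. Its 1 reproducible peak, on the minus strand of chromosome 22 from 39715541 to 39715575, began 95 nt into the span (39708887 to 39715670). At those bounds it held 13 and 12 reads, with 1 in the input, for log2 folds of 3.79 (1.05 to 9.20) and 4.10 (1.34 to 9.52). The cluster that replicate 2 listed at that place was wider, 46 nt against 35 nt, and had 12 reads over 3, a log2 fold of 2.51 that was not enriched. The reads of replicate 2 were 12 at both bounds, and the fold differed through the input number. RPL3 also had clusters with more reads and lower folds near its end. At 6047 nt into the span replicate 1 held 37 reads over 7 (log2 fold 2.49) and replicate 2, from 6052 nt, 34 over 7 (2.79). At 5578 nt replicate 1 held 34 over 6 (2.59), and from 5579 nt replicate 2 held 20 over 6 (2.25). All 4 of these clusters passed the −log10 p of 3 and missed the fold of 3.

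RPLP0 encodes a protein of the ribosomal stalk, the arm of the large subunit that engages elongation factors. Its span lies on the minus strand of chromosome 12 from 120634489 to 120639038, with 2 reproducible peaks. The peak from 120637036 to 120637087 held 31 and 20 reads over an input number of 3, with log2 folds of 3.46 (1.78 to 5.81) and 3.25 (1.50 to 5.64). The peak from 120635285 to 120635331 held 18 and 16 reads over 2, with log2 folds of 3.26 (1.20 to 6.41) and 3.51 (1.43 to 6.68). Both replicates passed 3 at the bounds of both peaks. In its own list replicate 1 had 31 over 4 at the first (3.04, enriched) and 19 over 3 at the second (2.75, not enriched), and clusters meeting the peaks held 51.0% and 53.7% of the gene's cluster reads.

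EEF2 encodes the elongation factor that moves the ribosome along the messenger RNA. Its span is on the minus strand of chromosome 19 from 3976054 to 3985461, and its 3 reproducible peaks lay at the far end, all between 9094 and 9300 nt into a span of 9408 nt. From 3976323 to 3976367 there were 43 and 34 reads over an input number of 5, with log2 folds of 3.19 (1.86 to 4.89) and 3.28 (1.92 to 4.99). From 3976213 to 3976270 there were 48 and 65 reads over 7, with 2.87 (1.71 to 4.26) and 3.73 (2.60 to 5.10), the widest gap between replicates among the members' peaks (SD 0.61, n = 2). From 3976161 to 3976212 there were 21 and 20 reads over 3, with 2.89 (1.15 to 5.28) and 3.25 (1.50 to 5.64). In replicate 1 the second and the last of the peaks stood under 3, while the authors' mean was above it.

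Inside that stretch the input varied more than the immunoprecipitated reads. Between the first and second of these peaks, each replicate had a cluster with many reads and a low fold. In replicate 1 it held 52 reads over an input number of 27 (log2 fold 1.03), and in replicate 2 38 over 27 (1.01). In replicate 1 the clusters that abut it held 43 over 5 (3.19, enriched) and 42 over 7 (2.67, not enriched). In replicate 2 the abutting cluster held 65 over 7 (3.73), and the one on the other side, after a gap, 32 over 5 (3.19), both enriched. Clusters meeting a peak held 67.4% of the EEF2 cluster reads in replicate 1, where the low cluster reaches into a peak and is counted, and 61.3% in replicate 2. Reads shared by abutting clusters are counted in each.

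**Figure D2:**
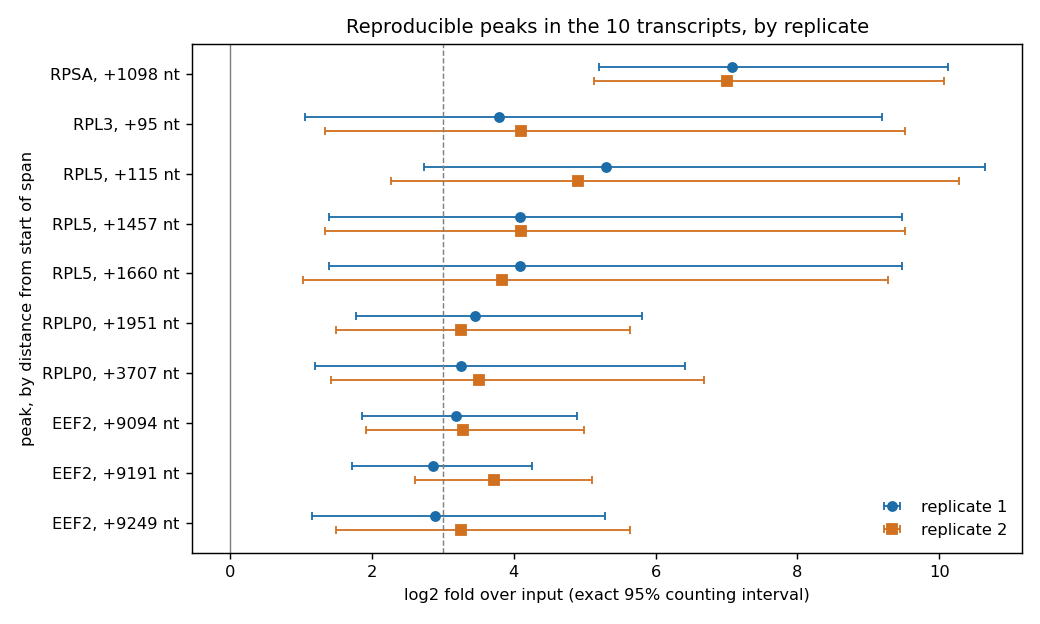
Log2 fold over input of the 10 reproducible peaks in each replicate, with exact 95% counting intervals; the vertical axis names the gene and the distance of the peak from the start of its span. RPSA stands at 7.07 and 7.01, EEF2 and RPLP0 lie between 2.87 and 3.73, and the 4 peaks of RPL3 and RPL5 with an input number of 1 have the widest intervals.

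The 5 genes without an enriched cluster were not without clusters. EEF1A1, whose product carries aminoacyl-tRNA to the ribosome, had 9 clusters in replicate 1 and 10 in replicate 2 across chromosome 6 from 74225473 to 74230755 on the minus strand. Their log2 folds ran from 0.45 to 2.82 in replicate 1 and from −0.62 to 2.51 in replicate 2. The highest, from 74228979 to 74229035, held 20 reads over 3 and had a −log10 p of 3.70 in replicate 1, and the cluster there in replicate 2 held 8 over 3 (log2 fold 1.93, −log10 p 1.22). The cluster with most reads in replicate 2 held 16 over 7 (1.71). All EEF1A1 clusters but 1 were above the input, and in neither replicate did one reach a fold of 3.

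RPL4 and RPL7A encode large-subunit proteins. The highest log2 fold of RPL4 was 2.89 in replicate 1, on 7 reads, and 3.10 in replicate 2, on 6 reads, both over an input number of 1 and short of the p-value limit. RPL7A reached 2.79 on 13 reads over 2 in replicate 1 and 2.63 on 13 over 3 in replicate 2. The clusters with most reads were lower: 17 over 4 (2.18) for RPL4 and 22 over 7 (1.74) for RPL7A in replicate 1. In replicate 2, 2 RPL4 clusters held 11 reads, at log2 folds of 1.97 and 0.80. Enrichment in RPL4 and RPL7A was thus not detectable at this depth, which does not show that it is absent.

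RPS3, a small-subunit protein gene whose product also acts in DNA repair, had many small clusters. Its 16 clusters of replicate 1 and 11 of replicate 2 had median recovered reads of 4 in each, with median log2 folds of 0.18 and 0.51. The most recovered reads were 8 over 7 (0.28) in replicate 1 and at least 7 over 30 (−1.59) in replicate 2, and clusters below the input may hold more. Of the 16, 7 lay below the input, and of the 11, 5 did. TPT1 had 5 clusters in each replicate. Its highest (chromosome 13, 45915081 to 45915152, minus strand) held 24 reads over 6 in replicate 2 (log2 fold 2.51, −log10 p 4.44), and the matching cluster of replicate 1 held 22 over 6 (1.96, 2.56). That place, 145 nt into the span, passed the p-value limit in replicate 2 alone and the fold limit in neither.

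**Figure D3:**
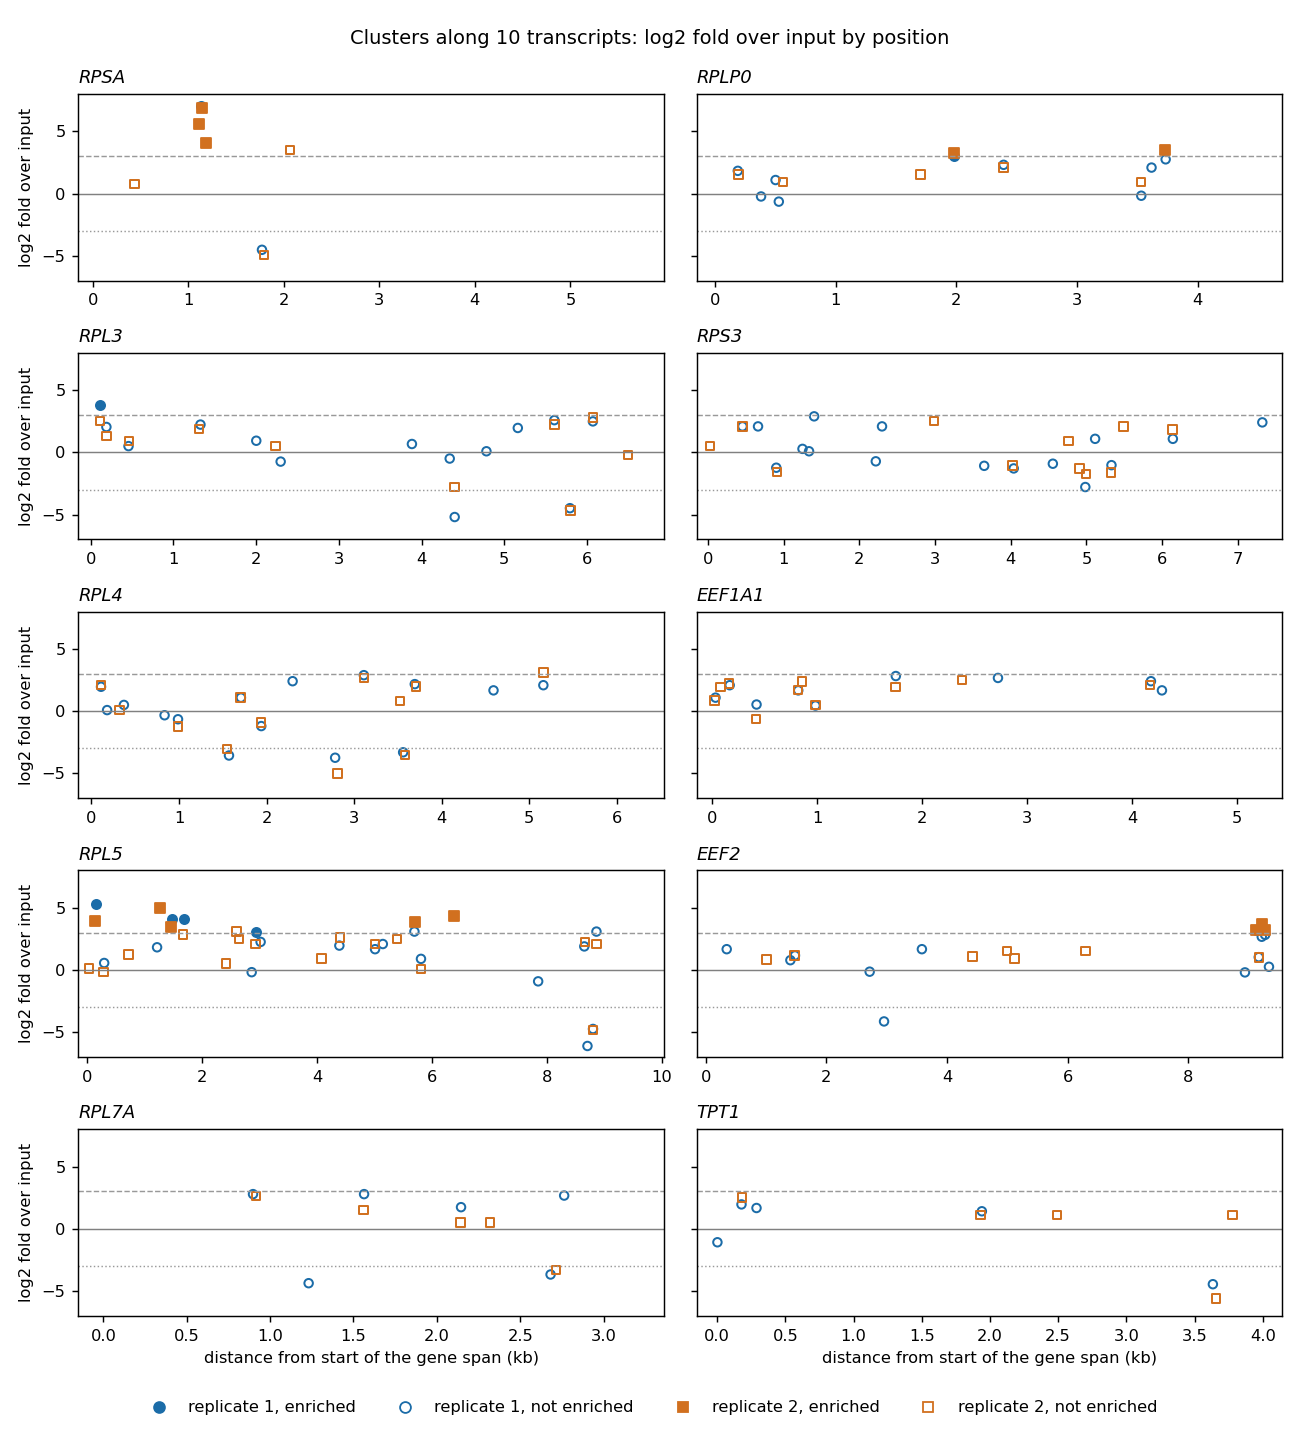
Log2 fold over input of each cluster against its distance from the start of the gene span in kb, 1 panel per gene, circles for replicate 1 and squares for replicate 2, filled where enriched; dashed and dotted lines mark log2 folds of 3 and −3. Enriched clusters sit near the start in RPL3 (95 nt), at 1098 nt in RPSA, from 112 to 6353 nt in RPL5, and from 9093 nt in EEF2.

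The position of contact was read against the 5′ end, where the pyrimidine runs printed above lie. Of the member clusters, 2 of 106 in replicate 1 and 3 of 97 in replicate 2 began in the first 25 nt of a span or just before it. Windows of that length elsewhere were not counted, so whether clusters are rare or common at the start is not known. The clusters at the start belonged to EEF1A1 and TPT1 in replicate 1 and to EEF1A1, RPL5 and RPS3 in replicate 2. Of these, 0 were enriched, and their highest log2 folds were 1.09 in replicate 1 and 0.88 in replicate 2, both in EEF1A1. Over all member clusters 7.55% and 13.4% were enriched, so 0 among so few is not a result about the pyrimidine runs. EEF1A1, with 14 reads over 7 in replicate 1 and 9 over 7 in replicate 2, was the member with such a cluster in both replicates. The TPT1 cluster began at −4 nt, before the span, and lay below the input, with a log2 fold of −1.08.

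A wider window held enriched clusters. Within 200 nt of the start, the first 25 nt included, 10 clusters of 6 members in replicate 1 and 11 clusters of 7 members in replicate 2 began. They held 167 of 1478 recovered cluster reads in replicate 1 and 135 of 1156 in replicate 2, with reads shared by abutting clusters counted in each. Enriched were 2 of the 10 in replicate 1, in RPL3 and RPL5, and 1 of the 11 in replicate 2, in RPL5. Over all member clusters the shares were 7.55% and 13.4%. The −log10 p reached 3 in 3 and 2 of these near-start clusters, against 15.1% and 17.5% of all member clusters. With so few clusters, and no such window counted over the lists, these counts do not set the start apart. Starts are those of the hg19 spans, which need not be the capped base of the transcript used in these cells. No hg19 annotation of exons was used, so whether a place is exonic, intronic or in a UTR is not stated.

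Over the whole spans, 6 of the 13 enriched places had their center in the first 25% of the span and 3 in the last 25%. Of the 6, 4 were in RPL5, so this is not a count over independent genes. The same shares were not computed for all member clusters, so the counts do not set enriched places apart from other clusters. Of the 13 places, 5 were enriched in both replicates, in RPSA, RPL5, RPLP0 and EEF2, with 2 of the 5 in RPL5. A further 3 were enriched in replicate 1 alone and 5 in replicate 2 alone.

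Over all clusters, the largest departure of these genes from the lists was on the other side, below the input. In replicate 1, 32 of 106 member clusters (30.2%) had a log2 fold below 0, against 5.68% of that list. In replicate 2 it was 19 of 97 (19.6%), against 3.98%. Unlike the enriched share, this share was not compared among clusters with as many reads. The members' clusters held more reads than those of the lists. Many of the members' clusters below the input were far below. At a log2 fold of −3 or less, which is at least 8-fold under the input, there were 12 member clusters in replicate 1 (11.3%, against 0.164% of the list) and 8 in replicate 2 (8.25%, against 0.19%). The 10 genes held 0.103% of all clusters of replicate 1 but 12 of the 169 clusters that far below the input (7.10%), and in replicate 2 8 of 126 (6.35%). The limit of −3 was chosen after the values were seen.

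These places were the same in both replicates for most genes. In replicate 1 they lay in RPSA, RPL3, RPL4, RPL5, RPL7A, EEF2 and TPT1, and in replicate 2 in the same genes without EEF2. Of the 12 clusters of replicate 1, 8 were overlapped by such a cluster of replicate 2. RPL4 had 3 in each replicate, at the same 3 places, beginning 1530, 2739 and 3519 nt into the span in replicate 1, with log2 folds of −3.56, −3.74 and −3.30. The overlapping clusters of replicate 2 stood at −3.02, −5.01 and −3.52. At the last place replicate 2 had a second overlapping cluster, above the input, with 11 reads over 9 (0.80).

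The lowest value of any member cluster was in RPL5. From 93306284 to 93306313 it stood at −6.11 in replicate 1, or 69.0-fold under the input, on a read pair of at least 7 against 513, and replicate 2 listed no cluster there. The neighboring place, from 93306380 to 93306410, stood at −4.74 in replicate 1, and from 93306385 to 93306403 at −4.84 in replicate 2. In RPSA the cluster from 39449947 to 39450004 stood at −4.52 in replicate 1 and that from 39449988 to 39450009 at −4.92 in replicate 2. The TPT1 cluster from 45911621 to 45911705 stood at −4.45 and that of replicate 2 from 45911632 to 45911651 at −5.62. RPSA and RPL5 thus held some of the highest and some of the lowest folds within 1 gene.

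Clusters far below the input were set beside the snoRNAs annotated in the genes. In GENCODE 29, which is on GRCh38, 8 of the 10 genes contain annotated snoRNAs on their own strand, 21 in all. They include SNORA6 and SNORA62 in RPSA, SNORA66 and SNORD21 in RPL5, SNORD16 and members of the SNORD18 family in RPL4, SNORD24 and members of the SNORD36 family in RPL7A, SNORD37 in EEF2 and SNORA31 in TPT1. A cluster far below the input occurred in 7 of these 8 hosts in replicate 1 and 6 in replicate 2. In EEF2 it was 1 cluster of replicate 1, 3 nt wide, with at least 3 reads over 56. RPS3, host of SNORD15A and SNORD15B, was the exception, with its lowest log2 fold at −2.79 in replicate 1 and −1.73 in replicate 2. RPLP0 and EEF1A1, with 0 annotated snoRNAs, had 0 such clusters. Whether each cluster overlaps a snoRNA was not tested, since the annotation is on another build than the lists. With only 2 genes lacking an annotated snoRNA, a link between snoRNAs and these clusters was not tested either.

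**Figure D4:**
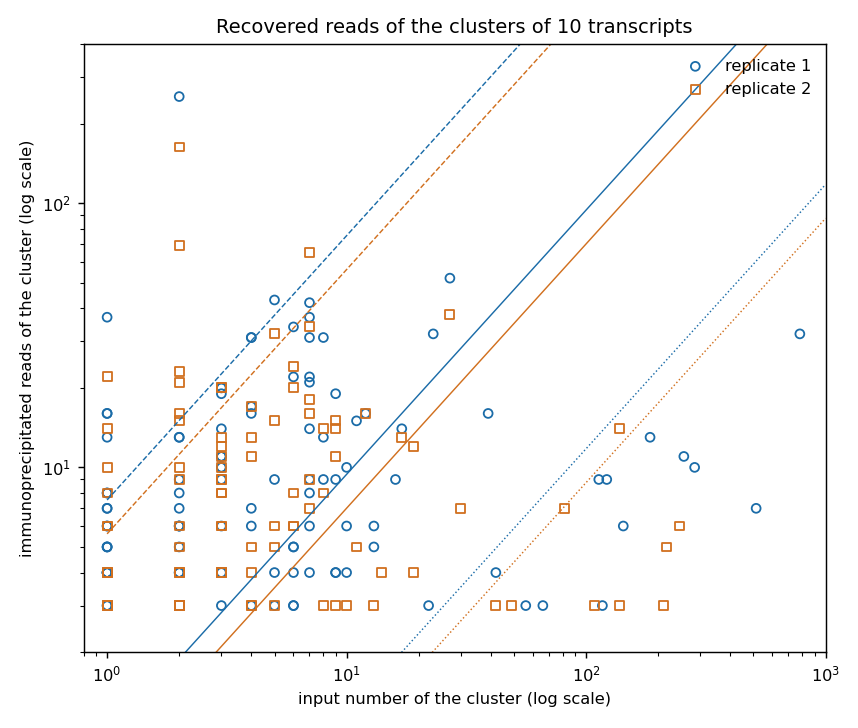
Immunoprecipitated reads of each member cluster against its input number, both on log scales, circles for replicate 1 and squares for replicate 2; solid, dashed and dotted lines mark equal levels, 8-fold above and 8-fold below the input for each replicate. The RPSA clusters stand at the upper left at 253 and 163 reads over 2, and the clusters far below the input lie at the lower right, out to an input number of 781; read pairs of clusters below the input are the smallest that give their fold.

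Reads were also summed over all clusters of a gene, at the read pairs taken. For clusters below the input those pairs are lower bounds. The sums, their SDs and their intervals would change with larger pairs. Sums also count a read in each of the abutting clusters it meets, so their intervals can be too narrow. The summed log2 fold, averaged over replicates, was below 0 in 7 genes and above it in RPLP0, EEF1A1 and EEF2. Of the 7, RPS3 had no cluster far below the input, and its replicate 1 interval spanned 0 (−0.83 to 0.08). In replicate 2 RPSA stood above 0, at 0.78. The replicate 2 intervals of RPL5 (−0.36 to 0.15) and RPL7A (−1.04 to 0.28) spanned 0. RPLP0 had 98 reads over 33 in replicate 1 and 67 over 22 in replicate 2, a log2 fold of 1.89 ± 0.33 (SD, n = 2). EEF1A1 had 109 over 42 and 83 over 46, at 1.41 ± 0.07 (SD, n = 2), and EEF2 had 233 over 151 and 191 over 65, at 1.39 ± 0.96 (SD, n = 2). At the other end TPT1 had 51 over 276 and 36 over 222, at −2.23 ± 0.17 (SD, n = 2), and RPL4 stood at −1.69 ± 0.10 (SD, n = 2). RPLP0 and EEF1A1 have no annotated snoRNA and EEF2 has 1, and a link of snoRNAs to the sums was not tested.

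RPSA showed how far such a sum depends on clusters far below the input. The sum stood at −1.37 for replicate 1 and 0.78 for replicate 2. With clusters at −3 or less left out, an alternative chosen after seeing the data, it was 7.07 and 5.00. The replicate 2 value sums abutting clusters that share reads. Leaving out clusters that low can only raise a sum, so the direction of the shift was fixed in advance. Under that alternative RPS3, which had no cluster past that limit, alone remained below 0, at −0.48. The median over the 10 genes moved from −0.53 to 1.62. The same sums over the whole lists were 0.77 in replicate 1 and 0.87 in replicate 2 with all clusters, and 1.42 and 1.65 without those far below. Clusters were called where immunoprecipitated reads pile up, so these sums describe called clusters and not whole transcripts.

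**Figure D5:**
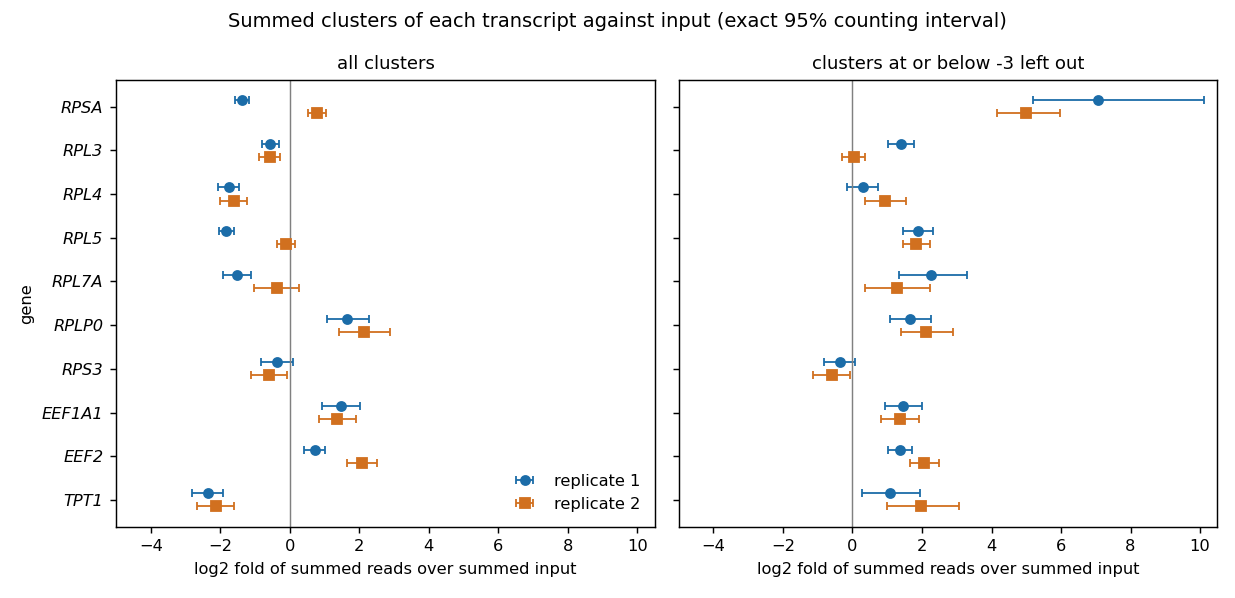
Log2 fold of the summed reads of each gene over its summed input numbers, with exact 95% counting intervals, for all clusters (left) and without clusters at a log2 fold of −3 or less (right). With all clusters 7 genes have a mean below 0. Without those far below, RPS3 alone does, and RPSA moves to 7.07 and 5.00. Reads of clusters below the input are lower bounds, so sums and intervals hold for the read pairs taken. Reads shared by abutting clusters are counted in each.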

How the data were processed

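The 10 genes, their spans and the tests were chosen with earlier results of these data known. The data used were 3 lists without headers, 1 per TIA1 replicate and 1 of reproducible peaks for both. In each, the authors deposited a −log10 p-value per interval, with a ceiling of 400, and a log2 fold over the input scaled by library totals; both units were read from the values. STAR 2.4.0i, SAMtools 1.4.1 and cutadapt (1.14, 1.9.1) appear in the submitters' processing notes, with build hg19; the cluster caller is not given in the sources used here.

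Library totals were recovered from the steps of the log2 fold, and reads per cluster from fold and p-value together (relative tolerance 2e-05). The form of that p-value (Fisher's exact test at small numbers, else chi-square with Yates' correction, 0 below the input) came from earlier work on these data, where forms were tried until values matched. Here clusters near a fold of 1 at first stayed unmatched, and the correction's form and an absolute tolerance of 5e-06 were changed until they did match. Of the members' clusters, 73 of 106 and 78 of 97 had 1 solution. For clusters below the input the p-value is 0 and the smallest read pair of at least 3 reads was taken. That pair was raised, a step chosen after seeing the data, in 2 clusters of replicate 1 and 1 of replicate 2 that held less input than a smaller interval inside them. The fold of a single cluster is itself exact, but a sum over clusters depends on the pairs taken. Such a sum also counts a read in each of the abutting clusters it meets. On simulated data, unique solutions were right in 100% of 1475 intervals at the totals of replicate 1 and of 1627 at those of replicate 2, and smallest pairs in 78.2% and 78.6%; the simulation used the same p-value form, so it does not test that form. No input number below 1 occurs, so 1 may include intervals without input reads.

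Intervals are exact (Clopper-Pearson, 95%) and cover counting error only. Every member is named, with its reproducible peaks, else its cluster of highest fold past the p-value limit, else that with most reads. A few clusters outside that rule were named after their values were seen. Other ribosomal protein genes were not used here, since the annotation given is on GRCh38. Scripts ran in Python 3.11.15 with scipy 1.17.1.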

Additional observations from a re-analysis of the deposited data

How the results depend on the processing

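No paired analysis was possible because the input has no replicate number and the 2 replicates are of 1 group. With the limits raised to 4 (log2 fold) and 5 (−log10 p), enriched member clusters numbered 2 instead of 8 in replicate 1 and 4 instead of 13 in replicate 2, reproducible peaks 2 instead of 10, and genes enriched in both replicates 2 instead of 4. With the fold limit lowered to 1 the enriched clusters of replicate 1 numbered 16. Joining enriched clusters at most 10 nt apart, an alternative chosen after seeing the data, gave 8 in replicate 1 and 10 in replicate 2. Among clusters with at least 10 reads, 6 in replicate 1 and 2 in replicate 2 were below the input, instead of 32 and 19. Reads of clusters below the input are lower bounds. Shares over the whole lists were not computed at any of these changed limits, so the counts do not set the members apart from the lists. Genes with a summed log2 fold below 0 went from 7 to 1 without clusters far below the input, where RPSA turned to 6.04, RPL3 to 0.72, RPL4 to 0.62, RPL5 to 1.85, RPL7A to 1.77 and TPT1 to 1.53. The RPL3 value averaged 1.40 in replicate 1 and 0.03 in replicate 2. At 4394 nt into its span a replicate 1 cluster at −5.20 was left out. The overlapping replicate 2 cluster, at −2.79, was kept. RPSA also turned with 1 replicate left out: it was 0.78 without replicate 1 and −1.37 without replicate 2. Of 27 alternatives of the counts, 19 stayed within 1.5 times. Depth limits single clusters, since enriched ones with an input number of 1 numbered 4 in replicate 1 and 3 in replicate 2.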
